A study of Homo sapiens with 9 samples.

Results

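HOX genes encode the homeodomain transcription factors that give cells their position along the body axis. They lie in the HOXA, HOXB, HOXC and HOXD clusters on separate chromosomes. A name such as HOXA5 gives the cluster and the paralogue position, which is shared by the related genes of the other clusters. Of the 64253 genes in the authors' table, 39 had such a name: 11 HOXA, 10 HOXB, 9 HOXC and 9 HOXD genes. The name alone decided which genes belonged, but the family was chosen with earlier results of these data known. HOXC5 had a second identifier with 0 counts, which was left out.

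Within each cluster the order of the genes on the chromosome follows the order in which they act along the body, with low-numbered genes in the head and neck and high-numbered genes in the lower trunk, limbs and genitalia. Fibroblasts keep much of this code in culture, and the set of HOX genes they transcribe is known to record where in the body they came from. HOX proteins bind DNA together with cofactors of the PBX, MEIS and PKNOX families. Retinoic acid and trithorax proteins are known to open the clusters, and Polycomb proteins are known to keep them silent.

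RNA was sequenced from IMR90, a normal human fetal lung fibroblast line, in 3 groups of 3 libraries, replicates a, b and c. The control carried the pLKO.1 lentiviral vector, which the sample labels call empty and the treatment protocol calls GFP. The shRRM2 group carried a hairpin against RRM2, the inducible subunit of ribonucleotide reductase, which the series describes as entering senescence through loss of deoxynucleotides, and the shRRM2 plus shp16 group (written shRRM2/shp16 in the series) carried a hairpin against p16 as well, which it describes as bypassing it. All groups were kept at 2% oxygen, used at population doubling 30, infected again after 24 hours and selected with 3 ug/mL puromycin for 7 days. No group with the p16 hairpin alone is among the 9 samples, so an effect of that hairpin without loss of RRM2 was not measured. The labels do not say whether the replicates were separate infections, so p-values measure the spread between these libraries, which may be technical.

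Each library held 15770895 to 24873291 counts in genes. RRM2 stood at 481 to 491 CPM (normalized counts, scaled by library size) in the control, 60.0 to 63.2 with shRRM2 and 175 to 181 with both hairpins, so the group with the p16 hairpin also held more RRM2 RNA than the shRRM2 group. CDKN2A, the gene of p16, stood at 5.95 to 6.15, 5.97 to 6.79 and 3.93 to 4.57 CPM in these groups, a count that cannot separate p16 from the ARF transcript of the same gene. The 8 fibroblast markers together held 26838 to 27701 CPM in the control, 26256 to 27053 with shRRM2 and 22096 to 22696 with both hairpins. Most of this sum is COL1A1 and COL1A2, and members moved apart. With shRRM2, 2 rose and 5 fell by the test given below, beside 29.0% higher and 31.8% lower of all tested genes. When the p16 hairpin was added to shRRM2 (the p16 step), COL3A1 rose by 1.13 on the log2 scale while VIM, THY1 and COL1A1 fell by 0.72, 0.83 and 0.53. Of markers of other cells, SFTPC of lung epithelium was at 0 in every library, and CDH5 of endothelium, PTPRC of leukocytes and HBB of red cells had 2, 6 and 7 counts over all 9 libraries. The 4 endothelial markers summed to 2.56 to 3.35 CPM in the control, 2.48 to 3.75 with shRRM2 and 5.23 to 5.38 with both hairpins, where KDR was called higher than in both other groups and VWF higher than in control. The 4 blood markers, nearly all CD68, summed to 2.31 to 3.27 CPM over all libraries, and CD68, the only one tested, was not called in any comparison. The smooth muscle and pericyte list summed to 247 to 259, 202 to 218 and 82.9 to 94.6 CPM, most of it CSPG4, while RGS5 of pericytes rose from a mean of 1.73 to 7.28 and 12.4 CPM. The epithelial list, nearly all of it KRT8 and KRT18, summed to 133 to 136, 163 to 168 and 53.0 to 55.3 CPM. Their part in the HOX results was not tested.

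The homeobox, the 180-base stretch that encodes the DNA-binding homeodomain, is what makes these genes a family. It is shown for HOXA4 and HOXA5, neighbouring genes that both fell with shRRM2 and rose when the p16 hairpin was added. The sequences were read from GENCODE release 29 transcripts (GRCh38, minus strand, written 5′ to 3′), each lies in 1 coding exon, and capitals mark bases that differ between these sequences.
HOXA4 homeobox, chr7:27129366-27129545: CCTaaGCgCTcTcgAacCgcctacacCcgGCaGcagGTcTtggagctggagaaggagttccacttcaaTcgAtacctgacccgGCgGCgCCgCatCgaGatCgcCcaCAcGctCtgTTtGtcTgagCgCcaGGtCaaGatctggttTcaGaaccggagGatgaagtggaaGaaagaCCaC
HOXA5 homeobox, chr7:27141886-27142065: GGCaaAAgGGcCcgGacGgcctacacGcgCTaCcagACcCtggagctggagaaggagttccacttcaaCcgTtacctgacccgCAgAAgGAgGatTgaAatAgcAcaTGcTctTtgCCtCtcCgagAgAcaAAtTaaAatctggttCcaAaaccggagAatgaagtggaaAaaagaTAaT
HOXA4 and HOXA5 had the same base at 129 of 180 positions, with a longest shared run of 28 bases. HOXA4 and HOXB4 had the same base at 154 of 180 positions, and their longest shared run was 26 bases. HOXA5 and HOXB5 had the same base at 148 of 180, with a longest shared run of 23. Over the 11 same-position pairs among the genes with enough counts, identity ran from 76.7% to 90.6% and the longest shared run from 15 to 32 bases. The longest run shared by the homeoboxes of any 2 of these genes was 51 bases, between HOXB6 and HOXB7. The rest of the genes was not compared. The length of the sequenced reads is not given in the sources used here, and reads that aligned equally well to more than 1 place have a line of their own in the count files, outside the gene counts.

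IMR90 cells transcribed the anterior and central parts of the HOXA and HOXB clusters and little else of the HOX code. Of the 39 genes, 17 passed the filter on low counts, among them HOXA2 to HOXA7, HOXB2 to HOXB8, and HOXC4, HOXC6 and HOXC8. By position they belonged to the anterior group (positions 1 to 3) and, 12 of them, to the central group (4 to 8). None of the 16 posterior genes (9 to 13) passed. The other 22 genes never exceeded 12 counts in a library, while the 17 never fell below 13.

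The 9 HOXD genes had 10 counts in all over the 9 libraries. HOXD3, HOXD4, HOXD11 and HOXD12, together with HOXA13, had 0 counts in every library, which allows a level of up to 0.018 CPM over the pooled libraries (3 counts of 167095774, counting error only). HOXD3 and HOXD4 share 62.2% and 80.5% of their exon bases with another annotated gene on the same strand, so their 0 covers reads that could be assigned to them alone. HOXD1, HOXD8, HOXD9, HOXD10 and HOXD13 had 1 to 3 counts in all. Closest under the filter were HOXC9, with 1 to 11 counts per library and 62 in all, and HOXA9, with 3 to 12 and 45 in all. HOXC9 had 8, 6 and 10 counts in the control libraries, 11, 8 and 7 with shRRM2 and 8, 1 and 3 with both hairpins, and in the 5 fits without control replicate a or b, shRRM2 replicate b or c or replicate a with both hairpins it passed the filter and was called lower at the p16 step (log2 -2.24 to -1.27). HOXA10, HOXA11, HOXB9 and HOXC5 followed with 14 to 20 counts in all, and HOXB1, HOXB13, HOXC10, HOXC11, HOXC12 and HOXC13 had 1 or 2.

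Levels are given as RPKM, here CPM divided by the gene's exon length in kilobases. That length includes exon bases shared with other genes, while reads that fit more than 1 gene may be counted for none. Genes with many shared bases, such as HOXA4 (31.0% on the same strand), may therefore stand too low in the order between genes. In the control the order ran from HOXB5 at 37.2 through HOXB2 (27.1), HOXA5 (25.6), HOXB6 (22.8), HOXB7 (19.1), HOXB3 (14.5), HOXA3 (9.98) and HOXB4 (8.50), and no neighbours in this upper part had overlapping control libraries. Below them lay HOXB8 (3.59), HOXA6 (3.55), HOXA7 (2.90), HOXA4 (2.66), HOXA2 (2.09), HOXC8 (0.877), HOXC6 (0.827) and HOXC4 (0.487). The control libraries overlapped between HOXB8 and HOXA6, between HOXA7 and HOXA4, and between HOXC8 and HOXC6, so those neighbours do not differ beyond their spread.

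**Figure D1:**
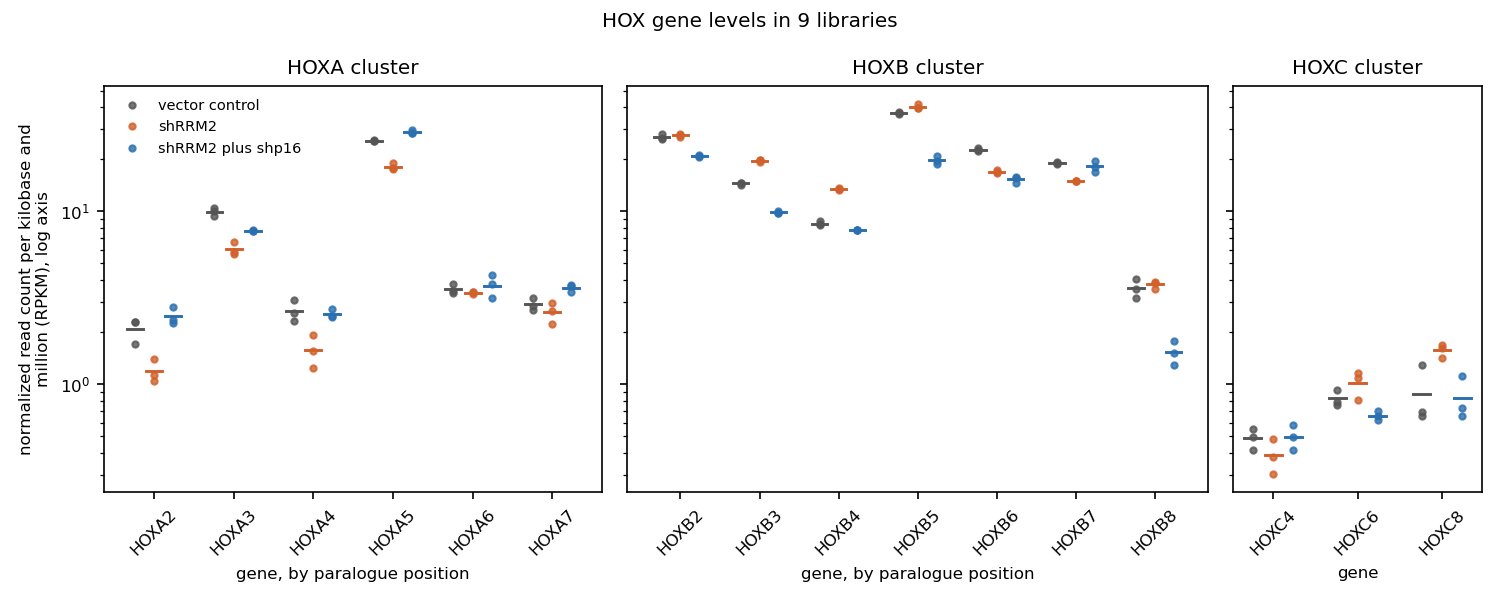
RPKM (log axis) of 16 HOX genes that passed the filter, by cluster and paralogue position, with a point for each of the 9 libraries and a line at each group mean. HOXA2 to HOXA5 dip in the shRRM2 libraries, while HOXB3 and HOXB4 peak there, and HOXB5 and HOXB8 drop with both hairpins.

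As cluster sums, the HOXA genes held less of the RNA in shRRM2 cells and the HOXB genes less in cells with both hairpins. Abundant genes carry these sums: HOXA3 and HOXA5 had control means of 43.0 and 43.8 CPM, and HOXB3, the largest of its cluster, 108 CPM. Single genes could go against their sum, as HOXB6 and HOXB7 did with shRRM2. Summed over the cluster, HOXA came to 107, 113 and 114 CPM in the control libraries, 77.6, 80.3 and 73.3 with shRRM2 and 110.4, 113 and 110.5 with both hairpins. HOXB came to 376, 377 and 373 CPM in the control libraries, 416, 421 and 421 with shRRM2 and 262, 266 and 263 with both hairpins. The HOXA sum was lowest in the 3 shRRM2 libraries and overlapped between the other groups, whereas the HOXB sum was highest with shRRM2 and lowest with both hairpins, with no overlap between any 2 groups. As a percentage of the HOXB counts of the same library, HOXA counts were 28.3, 29.9 and 30.5 percent in the control libraries, 18.6, 19.1 and 17.4 with shRRM2 and 42.1, 42.4 and 42.0 with both hairpins, a ratio that does not depend on library scaling. HOXC came to 5.95, 6.48 and 7.03 CPM in the control libraries, 7.62, 8.59 and 8.67 with shRRM2 and 5.76, 4.88 and 5.97 with both hairpins, so each shRRM2 library lay above all others. In bulk RNA, fewer cells that transcribe a gene and less RNA per cell cannot be told apart.

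How the HOX code differs once RRM2 is depleted is the question of shRRM2 against control. HOXA2, HOXA3, HOXA4 and HOXA5 fell; HOXB3, HOXB4 and HOXB5 rose and HOXB6 and HOXB7 fell; HOXC8 rose. Each gene was tested with edgeR's quasi-likelihood test, with p-values adjusted over 16561 genes by the Benjamini-Hochberg method and a threshold of 0.05. By this test 11 of the 17 genes changed, 5 up and 6 down, against 60.9% of all tested genes, 29.0% up and 31.8% down. None changed by 2-fold or more, against 10.1% of all genes. The median log2 fold change was -0.06 over the 17 genes, -0.50 over the 7 HOXA genes and 0.06 over the 7 HOXB genes, beside 0.0023 over all genes.

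Adding the p16 hairpin turned most of these directions around, and how many of all genes did likewise was not counted. Between shRRM2 plus shp16 and shRRM2, HOXA2, HOXA3, HOXA4, HOXA5 and HOXA7 rose, HOXB2, HOXB3, HOXB4, HOXB5, HOXB6 and HOXB8 fell while HOXB7 rose, and HOXC6 and HOXC8 fell. That is 14 of 17 genes, 6 up and 8 down, against 61.1% of all genes, 31.9% up and 29.1% down. HOXA2, HOXB5 and HOXB8 passed 2-fold, against 11.8% of all genes. The median was 0.48 over the HOXA genes and -0.79 over the HOXB genes, beside 0.012 over all genes. The 2 comparisons share the shRRM2 libraries, so a gene that happened to be low in those libraries would appear to fall and then rise. RRM2 RNA itself rose between these groups, by 1.51 on the log2 scale, and its part in the result was not tested.

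Against the control, cells with both hairpins differed in 10 of 17 genes, 3 up (HOXA5 and HOXA7 among them) and 7 down (HOXA3, HOXB2, HOXB3, HOXB4, HOXB5, HOXB6 and HOXB8), against 62.4% of all genes, 30.0% up and 32.4% down. HOXB8 alone passed 2-fold, against 12.6% of all genes. The median was 0.16 over the HOXA genes and -0.55 over the HOXB genes, beside 0.015 over all genes. This comparison shares libraries with both of the others. With 11, 14 and 10 of 17 called, the first and the last comparison lie near the share over all genes and the p16 step lies above it.

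**Figure D2:**
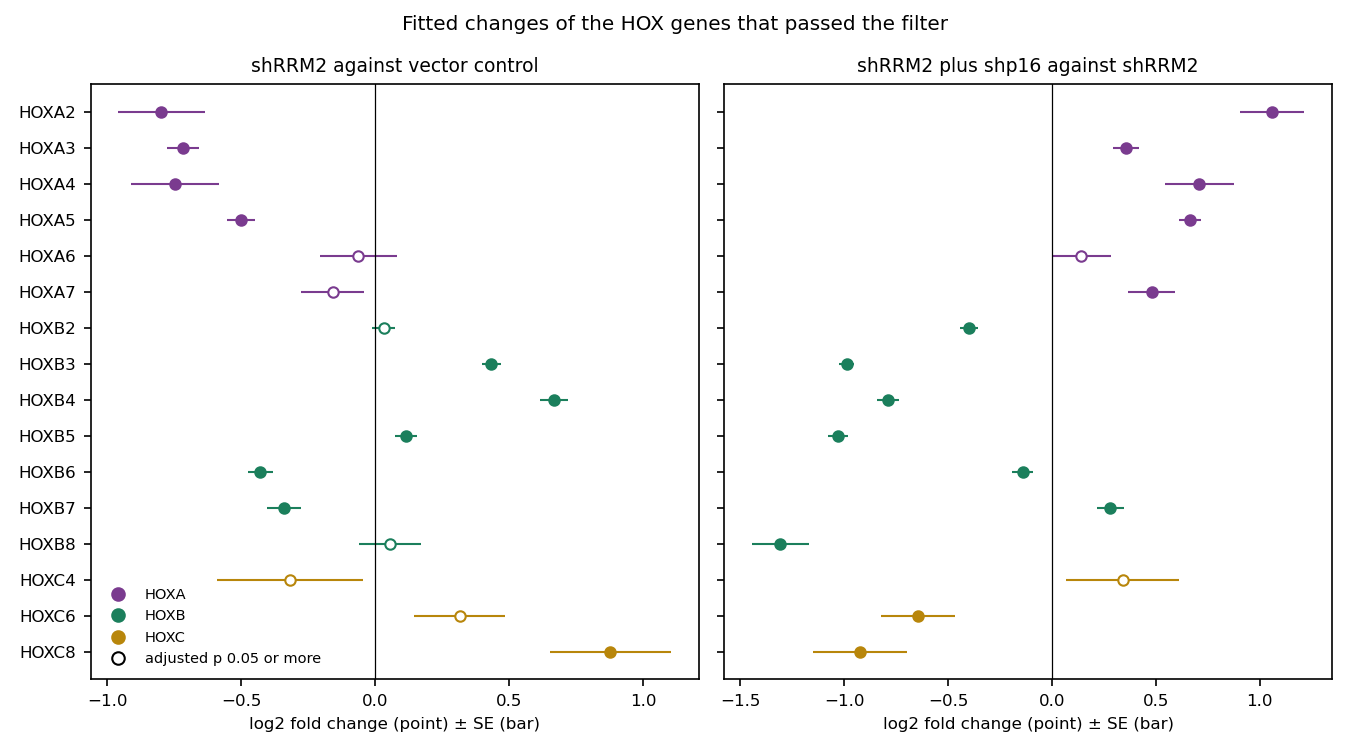
Fitted log2 fold change of 16 HOX genes with its standard error, for shRRM2 against control (left) and shRRM2 plus shp16 against shRRM2 (right), coloured by cluster, with open points where the adjusted p was 0.05 or more. On the right the filled HOXA points lie above 0 and, except for HOXB7, the filled HOXB and HOXC points lie below it.

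Gene positions below are those of GENCODE release 29 on GRCh38, HOXA and HOXB on the minus strand and HOXC on the plus strand, and counts are over annotated exons. HOXA2, a selector gene of the hindbrain and the pharyngeal arches, showed the widest swing of the cluster. It lies at chr7:27100354-27102811, and its level was 1.70, 2.30 and 2.28 RPKM in the control libraries, 1.39, 1.13 and 1.05 with shRRM2 and 2.36, 2.27 and 2.80 with both hairpins. The shRRM2 libraries lay below all others, and those of the other groups overlapped. It fell to 57.5% of control with shRRM2 (log2 -0.80 ± 0.16 (SE), adjusted p = 3.9e-05) and rose 2.09-fold at the p16 step (log2 1.06 ± 0.16 (SE), adjusted p = 1.2e-07). Against control it ended at log2 0.26 ± 0.13 (SE), adjusted p = 0.0876.

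HOXA3, needed for the thymus, parathyroid and carotid body, also fell with shRRM2 but came back only in part. It lies at chr7:27106184-27152581, and its level was 9.43, 10.1 and 10.4 RPKM in the control libraries, 5.85, 6.63 and 5.64 with shRRM2 and 7.72, 7.79 and 7.70 with both hairpins. No 2 groups overlapped, with control highest and shRRM2 lowest. The log2 changes were -0.72 ± 0.06 (SE), adjusted p = 4.3e-14 with shRRM2 and 0.36 ± 0.06 (SE), adjusted p = 3.1e-06 at the p16 step, leaving -0.36 ± 0.06 (SE), adjusted p = 2.8e-07 against control. The last 2 calls were lost when the authors' RPKM column of shRRM2 replicate c, which does not match its counts, was used.

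The central HOXA genes followed the same course at position 4 and 5 and less so further on. HOXA4 (chr7:27128507-27130799), a gene of the cervical and upper thoracic skeleton, stood at 2.33, 2.59 and 3.07 RPKM in the control libraries, 1.93, 1.55 and 1.25 with shRRM2 and 2.45, 2.74 and 2.49 with both hairpins. Its log2 change was -0.75 ± 0.16 (SE), adjusted p = 1.4e-04 with shRRM2 and 0.71 ± 0.17 (SE), adjusted p = 2.8e-04 at the p16 step, and control and both hairpins overlapped. Of its exon bases 31.0% are shared with another annotated gene on the same strand.

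HOXA5 is known for its role in lung development, where mesenchymal HOXA5 is required for normal airways, and it was the most abundant HOXA gene. It lies at chr7:27141052-27143668, and its level was 25.8, 25.5 and 25.5 RPKM in the control libraries, 17.7, 19.0 and 17.5 with shRRM2 and 28.3, 29.6 and 28.3 with both hairpins. The 3 groups did not overlap: shRRM2 was lowest and both hairpins highest. HOXA5 fell to 70.6% of control with shRRM2 (log2 -0.50 ± 0.05 (SE), adjusted p = 4.5e-11), rose 1.59-fold at the p16 step (log2 0.67 ± 0.05 (SE), adjusted p = 5.4e-15) and ended 1.12-fold above control (log2 0.16 ± 0.05 (SE), adjusted p = 0.00283).

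HOXA6 and HOXA7, trunk-patterning genes, did not pass with shRRM2. HOXA6 (chr7:27145396-27150603) stood at 3.39, 3.78 and 3.48 RPKM in the control libraries, 3.31, 3.41 and 3.44 with shRRM2 and 3.78, 4.26 and 3.14 with both hairpins, all groups overlapped, and no comparison passed the test (adjusted p 0.398 to 0.722). HOXA7 (chr7:27153716-27157936) stood at 2.83, 3.18 and 2.69 RPKM in the control libraries, 2.95, 2.22 and 2.64 with shRRM2 and 3.75, 3.43 and 3.70 with both hairpins. With both hairpins it lay above every library of the other groups, with log2 changes of 0.48 ± 0.11 (SE), adjusted p = 3.4e-04 against shRRM2 and 0.32 ± 0.11 (SE), adjusted p = 0.00927 against control. On the opposite strand HOXA-AS3 overlaps 62.5% of the exon bases of HOXA7 and 39.3% of those of HOXA6. The strand setting of the counting is not given in the sources used here. These counts may therefore lack reads that fit both genes, or hold antisense reads, which was not tested.

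The promoters of HOXA2 and HOXA4 are shown because both genes fell with shRRM2 and rose at the p16 step. The RefSeq promoter table (GRCh38.p14) matched 6 of the 17 genes; the stretches below are the part of the 250 bases before the start that lies in no annotated exon, written 5′ to 3′ on the minus strand. 3 short motifs were searched on both strands, and capitals mark their matches. CCAAT is the box bound by NF-Y. GGGCGG is the GC box bound by SP1. The PBX and HOX site was searched as TGATNNAT.
HOXA2 promoter stretch, chr7:27102812-27102933: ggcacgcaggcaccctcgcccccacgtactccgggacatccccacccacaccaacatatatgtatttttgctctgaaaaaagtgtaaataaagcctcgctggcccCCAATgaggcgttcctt
HOXA4 promoter stretch, chr7:27130800-27131007: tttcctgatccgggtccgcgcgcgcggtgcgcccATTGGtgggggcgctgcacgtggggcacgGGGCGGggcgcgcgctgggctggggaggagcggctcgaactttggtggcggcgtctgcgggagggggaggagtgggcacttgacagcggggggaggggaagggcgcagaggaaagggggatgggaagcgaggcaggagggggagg
The whole 250-base window of HOXA2 held 4 CCAAT boxes and 1 PBX and HOX site, most of them outside the stretch shown, and its GC content was 47.2%. That of HOXA4 held 1 CCAAT box and 1 GC box, with a GC content of 70.0%. Of 34943 promoter windows of the same length, 32.04% held the CCAAT box, 42.55% the GC box and 6.49% the PBX and HOX site, and the median GC content was 58.0%. A match is a run of letters and does not show that a factor binds there.

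The anterior HOXB genes were abundant and fell when the p16 hairpin was added. HOXB2 (chr17:48540894-48544989), a hindbrain gene, stood at 26.4, 28.2 and 26.8 RPKM in the control libraries, 27.1, 28.1 and 27.7 with shRRM2 and 21.2, 21.0 and 20.7 with both hairpins. Control and shRRM2 overlapped (log2 0.03 ± 0.04 (SE), adjusted p = 0.549), and all 3 libraries with both hairpins lay below them (log2 -0.40 ± 0.05 (SE), adjusted p = 2.6e-10 against shRRM2, and -0.37 ± 0.04 (SE), adjusted p = 1.2e-09 against control).

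HOXB3 acts beside HOXA3 in the neck and, with HOXB4, in blood stem cells. It lies at chr17:48548870-48604912 and stood at 14.7, 14.2 and 14.7 RPKM in the control libraries, 19.8, 20.0 and 19.2 with shRRM2 and 9.83, 10.1 and 9.77 with both hairpins. It rose 1.35-fold with shRRM2 (log2 0.43 ± 0.04 (SE), adjusted p = 2.2e-14) and fell to 50.4% of that level at the p16 step (log2 -0.99 ± 0.04 (SE), adjusted p = 2.9e-26), below control (log2 -0.55 ± 0.04 (SE), adjusted p = 3.6e-17). No 2 groups overlapped.

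HOXB4, known for expanding blood stem cells, was the HOXB gene that rose furthest with shRRM2. It lies at chr17:48575513-48580111, and its level was 8.44, 8.75 and 8.31 RPKM in the control libraries, 13.4, 13.4 and 13.7 with shRRM2 and 7.83, 7.77 and 7.85 with both hairpins. The rise was 1.59-fold (log2 0.67 ± 0.05 (SE), adjusted p = 2.9e-15) and the fall at the p16 step took it to 57.9% of the shRRM2 level (log2 -0.79 ± 0.05 (SE), adjusted p = 1.5e-17). Its difference from control with both hairpins was small (log2 -0.12 ± 0.05 (SE), adjusted p = 0.0498) and passed in only 1 of the 19 other ways of fitting. Of its exon bases 17.1% are shared with same-strand genes, HOXB3 among them.

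HOXB5, which takes part in airway branching and in the enteric nervous system, was the most abundant HOX gene in control and shRRM2 cells. It lies at chr17:48591257-48593961 and stood at 37.2, 37.8 and 36.5 RPKM in the control libraries, 39.6, 39.7 and 41.6 with shRRM2 and 19.5, 18.9 and 20.8 with both hairpins. The rise with shRRM2 was 1.08-fold (log2 0.11 ± 0.04 (SE), adjusted p = 0.017) and was lost in 4 of 19 other fits, among them leaving out control replicate c or shRRM2 replicate c. Both hairpins brought it to 49.0% of the shRRM2 level (log2 -1.03 ± 0.05 (SE), adjusted p = 2.1e-23) and to 53.0% of control (log2 -0.91 ± 0.05 (SE), adjusted p = 9.2e-22). With both hairpins HOXA5 was the highest HOX gene, at a mean of 28.7 ± 0.732 RPKM (SD, n = 3), above HOXB2 at 21.0 ± 0.223 and HOXB5 at 19.7 ± 0.980.

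HOXB6 and HOXB7 parted from the genes before them in the cluster, since both fell with shRRM2. HOXB6 (chr17:48595751-48604992), expressed in limb bud mesenchyme and erythroid precursors, stood at 23.2, 22.5 and 22.7 RPKM in the control libraries, 16.6, 16.9 and 17.3 with shRRM2 and 15.8, 15.6 and 14.7 with both hairpins. Its log2 change was -0.43 ± 0.05 (SE), adjusted p = 1.4e-10 with shRRM2 and -0.14 ± 0.05 (SE), adjusted p = 0.0135 at the p16 step, and the second call was lost in 5 other fits, among them leaving out replicate c with both hairpins. HOXB7 (chr17:48607227-48633572), known for driving proliferation when overexpressed in tumours, stood at 18.9, 19.0 and 19.3 RPKM in the control libraries, 15.0, 15.0 and 15.1 with shRRM2 and 17.0, 19.7 and 18.2 with both hairpins. It fell with shRRM2 (log2 -0.34 ± 0.06 (SE), adjusted p = 1.2e-05) and, alone among the HOXB genes, rose at the p16 step (log2 0.28 ± 0.06 (SE), adjusted p = 2.0e-04), so that control and both hairpins overlapped. The annotated span of HOXB7 contains HOXB8, though they share no exon bases.

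HOXB8, which blocks myeloid differentiation when overexpressed, had the largest change at the p16 step among the 17 HOX genes that passed the filter. It lies at chr17:48611377-48614939, and its level was 4.05, 3.57 and 3.17 RPKM in the control libraries, 3.90, 3.57 and 3.86 with shRRM2 and 1.52, 1.29 and 1.78 with both hairpins. Control and shRRM2 overlapped, and the 3 libraries with both hairpins lay far below. It fell to 40.4% of the shRRM2 level (log2 -1.31 ± 0.14 (SE), adjusted p = 4.0e-11) and to 42.0% of control (log2 -1.25 ± 0.14 (SE), adjusted p = 6.7e-11), while its neighbour HOXB7 rose. HOXB8 counts per HOXB7 count were 0.287, 0.252 and 0.221 in the control, 0.349, 0.319 and 0.343 with shRRM2 and 0.120, 0.0877 and 0.132 with both.

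The HOXC genes were near the bottom of the range. HOXC8 (chr12:54009106-54012362), a gene of brachial motor neurons and the thoracic skeleton, stood at 0.688, 0.651 and 1.29 RPKM in the control libraries, 1.68, 1.62 and 1.43 with shRRM2 and 0.727, 0.659 and 1.11 with both hairpins. It rose 1.84-fold with shRRM2 (log2 0.88 ± 0.23 (SE), adjusted p = 8.6e-04) and fell at the p16 step (log2 -0.92 ± 0.23 (SE), adjusted p = 5.2e-04), back among the control libraries, of which replicate c lay above the other two. Without that library the rise with shRRM2 was 1.21 on the log2 scale, past 2-fold. HOXC6 (chr12:53990624-54030823), a thoracic gene, stood at 0.793, 0.932 and 0.757 RPKM in the control libraries, 0.807, 1.09 and 1.17 with shRRM2 and 0.657, 0.619 and 0.698 with both hairpins and fell at the p16 step (log2 -0.64 ± 0.18 (SE), adjusted p = 0.00182). HOXC4 (chr12:54016931-54056030), which shares exon bases with HOXC5 and HOXC6, stood at 0.492, 0.554 and 0.415 RPKM in the control libraries, 0.303, 0.381 and 0.484 with shRRM2 and 0.582, 0.493 and 0.414 with both hairpins, with overlap between all groups and adjusted p of 0.284 to 0.944.

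Set side by side, HOXA and HOXB paralogues at the same position shifted in their balance. The ratio of the HOXA to the HOXB count was lower with shRRM2 than in control at positions 2 to 5, in all libraries. At position 2 it was 0.0681, 0.0858 and 0.0895 in the control libraries, 0.0542, 0.0421 and 0.0399 with shRRM2 and 0.118, 0.113 and 0.142 with both hairpins. At position 3 it was 0.371, 0.410 and 0.409 in the control libraries, 0.171, 0.192 and 0.169 with shRRM2 and 0.453, 0.445 and 0.455 with both hairpins. At position 4 it was 0.128, 0.138 and 0.172 in the control libraries, 0.0669, 0.0538 and 0.0424 with shRRM2 and 0.145, 0.164 and 0.148 with both hairpins. Of positions 2 to 5 this mean ratio fell furthest with shRRM2 relative to its control mean, and it then returned to the control range. At position 5 it was 0.580, 0.565 and 0.585 in the control libraries, 0.375, 0.401 and 0.353 with shRRM2 and 1.22, 1.31 and 1.14 with both hairpins, so HOXA5 counts went from below those of HOXB5 to above them. At position 6 the ratio was higher with each added hairpin, with no overlap (0.0723, 0.0830 and 0.0755, then 0.0982, 0.0993 and 0.0983, then 0.118, 0.135 and 0.105), and at position 7 shRRM2 overlapped both other groups. From shRRM2 to both hairpins the mean ratio rose in 6 of 6 pairs, without overlap in 5. These are ratios of raw counts, which do not correct for gene length and were not tested.

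**Figure D3:**
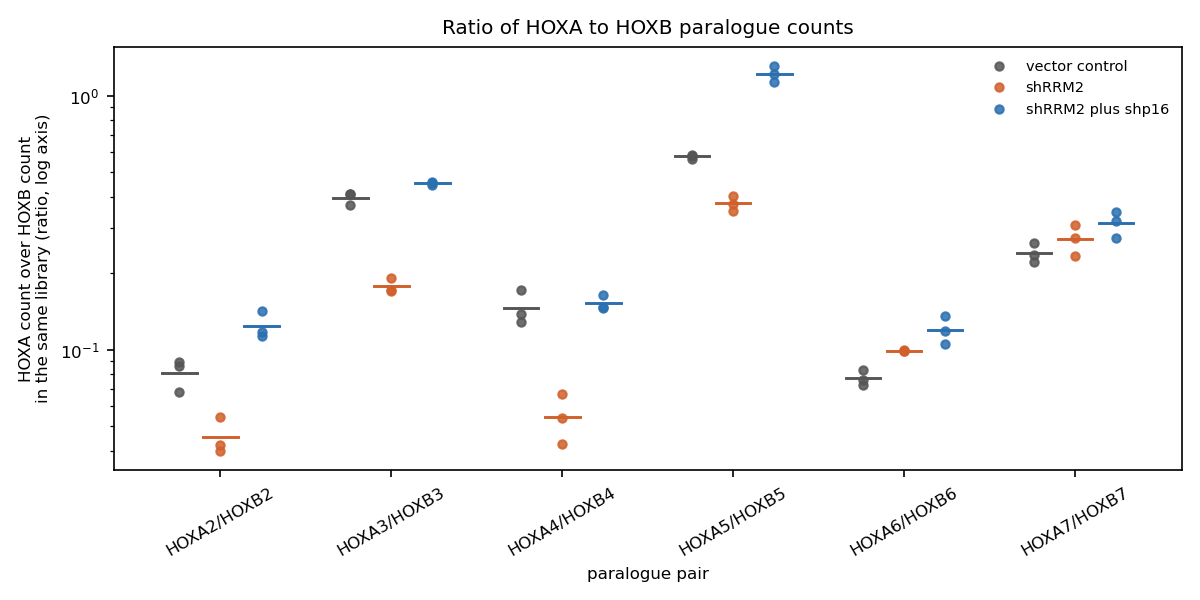
Ratio of the HOXA to the HOXB count within each library (log axis) for the 6 paralogue pairs, with points for libraries and lines for group means. The shRRM2 points lie lowest at positions 2 to 5, and with both hairpins the HOXA5/HOXB5 ratio passes 1.

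The authors' deposited table compares shRRM2 plus shp16 with shRRM2 by their own pipeline. It gives the same sign as the count test for all 17 genes and calls 7 of them, HOXA2, HOXA5, HOXB3, HOXB4, HOXB5, HOXB8 and HOXC8, all of which the count test calls too. In the authors' deposited table the log2 fold changes of HOXA2 and HOXA5 are 0.92 and 0.72 (q = 4.4e-04 and 0.0197), and those of HOXB5 and HOXB8 are -0.99 and -1.17 (q = 4.4e-04 and 0.00226). Another 7 genes pass the count test only.

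Among noncoding RNAs of the clusters, HOTAIRM1 changed in the direction of HOXA2, and HOXB-AS1 and HOXB-AS3 in that of HOXB3. Of the other genes that HOXB-AS1 or HOXB-AS3 overlaps, HOXB5 moved likewise, whereas with shRRM2 HOXB6 fell and HOXB2 did not pass. Of 21 listed, 18 were in the table, 7 of these had 0 counts everywhere and 5 passed the filter. With shRRM2, 2 rose and 2 fell, and at the p16 step 1 rose and 2 fell, with medians of -0.22 and 0.21, beside 60.9% and 61.1% of all genes called. HOTAIRM1, transcribed in the HOXA cluster, stood at 4.48, 3.80 and 3.46 CPM in the control libraries, 2.92, 3.40 and 2.81 with shRRM2 and 4.23, 4.53 and 5.21 with both hairpins. It fell with shRRM2 (log2 -0.38 ± 0.16 (SE), adjusted p = 0.0399) and rose at the p16 step (log2 0.61 ± 0.16 (SE), adjusted p = 8.6e-04).

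HOXB-AS1, antisense to parts of HOXB2 and HOXB3, stood at 4.48, 4.75 and 4.29 CPM in the control libraries, 7.24, 5.48 and 6.71 with shRRM2 and 2.59, 2.34 and 2.26 with both hairpins. It rose with shRRM2 (log2 0.52 ± 0.13 (SE), adjusted p = 8.5e-04) and fell at the p16 step (log2 -1.43 ± 0.15 (SE), adjusted p = 4.1e-11). HOXB-AS3, antisense to parts of HOXB3, HOXB5 and HOXB6, did likewise, with log2 changes of 0.25 ± 0.08 (SE), adjusted p = 0.00834 and -0.93 ± 0.09 (SE), adjusted p = 5.2e-12. HOXA-AS2 fell with shRRM2 (log2 -0.47 ± 0.12 (SE), adjusted p = 6.3e-04) and did not pass at the p16 step (log2 0.21 ± 0.12 (SE), adjusted p = 0.139), and HOXA-AS3 passed in no comparison. Reads that fit more than 1 gene may be counted for none, so these counts and those of the overlapping HOX genes may lack reads. Since the strand setting is not known, the extent of this loss and any antisense reads in these counts were not tested.

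AC103702.1 (ENSG00000257178, chr17:48579630-48582259), a sense-intronic RNA that overlaps HOXB4, was singled out after its values were seen. The miR-10a hairpin (chr17:48579838-48579947) lies inside its span and inside that of HOXB4. AC103702.1 stood at 10.6, 10.2 and 8.94 CPM in the control libraries, 18.5, 16.3 and 16.8 with shRRM2 and 8.40, 7.77 and 7.79 with both hairpins. Its log2 changes of 0.78 ± 0.09 (SE), adjusted p = 2.1e-10 and -1.10 ± 0.09 (SE), adjusted p = 3.1e-14 follow HOXB4, with which it shares exon bases, and the count says nothing of the mature microRNA. HOTAIR had 2 counts over all 9 libraries, and HOTTIP, HOXA11-AS and HAGLROS had 0.

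Of 17 listed names of genes next to the clusters, 8 were tested: 1 rose and 3 fell with shRRM2, and 4 rose and 2 fell at the p16 step, beside 60.9% and 61.1% of all genes called. Beside HOXA, SKAP2 and HIBADH did not pass with shRRM2 (log2 -0.0029 and -0.09, adjusted p = 0.966 and 0.284) and rose at the p16 step by 0.23 and 0.41 (adjusted p = 1.4e-04 and 8.2e-07). Beside HOXC, CALCOCO1 rose by 0.91 with shRRM2 while HNRNPA1 and CBX5 fell by 0.93 and 0.61. At the p16 step CALCOCO1 fell by 0.19, HNRNPA1 and SMUG1 rose by 0.36 and 0.47 and CBX5 did not pass (log2 -0.05). Beside the silent HOXD cluster, MTX2 stood at a mean of 19.9, 19.9 and 20.2 CPM in the 3 groups and passed in no comparison, whereas KIAA1715 fell by 0.46 with shRRM2 and by 0.23 at the p16 step. EVX1, EVX2 and PRAC1 had 0 counts.

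The cofactors with which HOX proteins bind DNA fell or did not pass with shRRM2 and moved apart at the p16 step. Of 9 TALE genes, 8 were tested. With shRRM2, 5 fell and 0 rose, beside 31.8% lower and 29.0% higher of all genes, and 5 of 8 called is near the 60.9% of all genes called. At the p16 step 3 rose and 4 fell, beside 31.9% higher and 29.1% lower of all genes and 61.1% called. MEIS1, known for its part with HOX proteins in leukaemia, stood at 148, 150.1 and 146 CPM in the control libraries, 145, 145 and 146 with shRRM2 and 198, 191 and 185 with both hairpins. The shRRM2 libraries lay just below those of the control (log2 -0.03 ± 0.03 (SE), adjusted p = 0.527), and those with both hairpins lay above all others. MEIS1 rose at the p16 step (log2 0.40 ± 0.03 (SE), adjusted p = 3.3e-14), as did MEIS3 (log2 0.46 ± 0.07 (SE), adjusted p = 1.5e-07).

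PBX3 went down at both steps and stood at 32.4, 32.3 and 34.0 CPM in the control libraries, 18.4, 19.3 and 21.0 with shRRM2 and 13.5, 13.4 and 14.3 with both hairpins (log2 -0.74 ± 0.07 (SE), adjusted p = 2.0e-13 and -0.51 ± 0.08 (SE), adjusted p = 1.1e-07). MEIS2 did not pass with shRRM2 and fell at the p16 step, from 29.7 to 33.0 CPM to 13.4 to 15.5 CPM (log2 -1.07 ± 0.07 (SE), adjusted p = 1.1e-17). PKNOX1 and PKNOX2 fell at both steps, by 0.18 and 0.64 and then by 0.39 and 0.61. PBX2 had 4 counts in all, under an identifier with no position in the annotation used here, so its level cannot be read from this count.

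**Figure D4:**
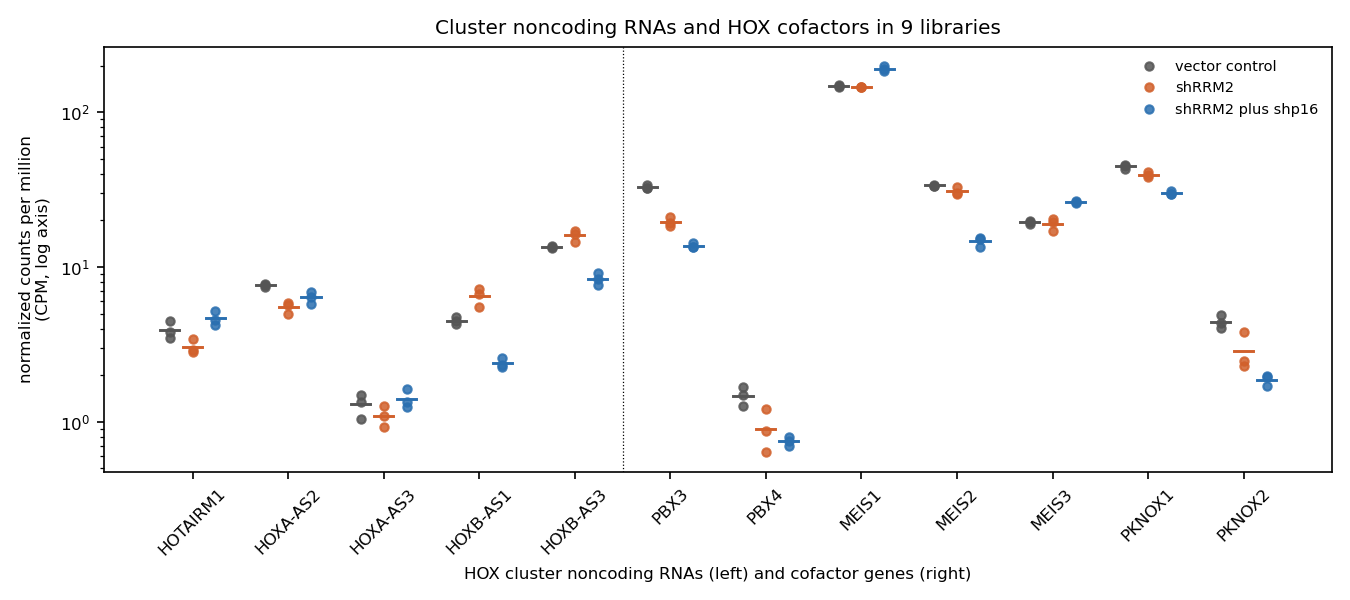
CPM (log axis) of the 5 noncoding RNAs of the HOX clusters and 7 TALE cofactor genes that passed the filter, with points for the 9 libraries and lines for group means. The HOXB antisense RNAs, PBX3, MEIS2, PKNOX1 and PKNOX2 are lowest with both hairpins, where MEIS1 and MEIS3 are highest.

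A list of proteins of trithorax complexes, CDX factors, histone demethylases, CTCF and genes of retinoic acid synthesis, breakdown and reception held 21 genes, of which 15 were tested. With shRRM2 5 rose and 7 fell, and at the p16 step 7 rose and 3 fell, beside the same 60.9% and 61.1%. KDM6B, which removes the Polycomb mark from histone H3, stood at 44.9, 46.6 and 47.9 CPM in the control libraries, 42.2, 43.3 and 43.6 with shRRM2 and 91.6, 92.9 and 96.9 with both hairpins and rose at the p16 step (log2 1.12 ± 0.04 (SE), adjusted p = 2.9e-25). CTCF, which forms boundaries inside the clusters, fell with shRRM2 (log2 -0.75 ± 0.04 (SE), adjusted p = 7.7e-19) and rose again (log2 0.68 ± 0.04 (SE), adjusted p = 2.2e-17). CYP26B1, which degrades retinoic acid, rose from 0.112 to 0.209 CPM in the control to 0.508 to 1.38 with shRRM2 and 2.90 to 3.09 with both hairpins.

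Of 27 Polycomb genes, 26 were tested. With shRRM2 4 rose and 10 fell, and 13 rose and 3 fell at the p16 step, so 14 and 16 of 26 were called, near the 60.9% and 61.1% of all genes. By direction, 29.0% of all genes were higher and 31.8% lower with shRRM2, and 31.9% and 29.1% at the p16 step. EZH2, the methyltransferase of Polycomb repressive complex 2, stood at 56.8, 52.8 and 52.1 CPM in the control libraries, 22.3, 24.5 and 26.0 with shRRM2 and 27.3, 27.2 and 25.1 with both hairpins. It fell with shRRM2 (log2 -1.15 ± 0.06 (SE), adjusted p = 3.2e-21) and did not pass at the p16 step (log2 0.13 ± 0.07 (SE), adjusted p = 0.0911). CBX7, a reader of the Polycomb mark, was higher in each library with both hairpins than in any other and rose at the p16 step (log2 0.97 ± 0.12 (SE), adjusted p = 2.5e-09). The median over the list was -0.08 with shRRM2 and 0.20 at the p16 step.

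Other positional transcription factors and lung mesenchyme factors mostly fell with shRRM2 and rose at the p16 step. Of 26 listed, 18 were tested; 1 rose and 11 fell with shRRM2 (median -0.45), and 11 rose and 3 fell at the p16 step (median 0.46), beside 29.0% higher and 31.8% lower of all genes with shRRM2 and 31.9% and 29.1% at the p16 step. FOXF1, required for lung mesenchyme and vessels, stood at 313, 345 and 347 CPM in the control libraries, 262, 245 and 253 with shRRM2 and 503, 505 and 528 with both hairpins, with log2 changes of -0.40 ± 0.03 (SE), adjusted p = 5.4e-14 and 1.01 ± 0.03 (SE), adjusted p = 1.8e-28. TBX5, which sets up lung budding with TBX4, went from 77.4 to 82.9 CPM down to 53.6 to 58.5 and back to 72.9 to 76.7 (log2 -0.50 ± 0.04 (SE), adjusted p = 4.6e-13 and 0.41 ± 0.04 (SE), adjusted p = 9.2e-11).

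PRRX2, a limb and connective tissue homeobox gene, had the largest fall of this list with shRRM2 (log2 -1.98 ± 0.09 (SE), adjusted p = 2.9e-22) and rose at the p16 step (log2 1.49 ± 0.10 (SE), adjusted p = 2.7e-17). MSX1 did not pass with shRRM2 and fell at the p16 step, by 1.13 on the log2 scale. NKX2-1, the lung epithelial factor, had 0 counts in every library.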

How the data were processed

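RNA-seq libraries of IMR90 cells, 3 each of vector control, shRRM2 and shRRM2 plus shp16, were grouped by the labels. For each library the authors deposited a file of whole-number read counts by Ensembl gene, in the layout of HTSeq. Closing lines hold reads assigned to no gene and ambiguous reads (17.6% to 28.8% and 3.74% to 6.02% of uniquely aligned reads). These entered neither library sizes nor tests. Reads assigned to no gene made up 17.6% to 18.9% in the control, 27.7% to 28.8% with shRRM2 and 23.5% to 24.4% with both hairpins. As counts are over annotated exons, they may include reads in introns. The part of this group difference in the HOX results was not tested. They also deposited a table of log2 RPKM values with their own log2 fold change, p-value and q-value for shRRM2 plus shp16 against shRRM2, per the file headers. By calculation from the counts, its values are log2(RPKM/1000 + 1) with exon lengths of GENCODE release 29. 8 of its 9 columns match the counts, and that of shRRM2 replicate c does not. There were 0 columns without a sample. TopHat2 2.0.9, Cufflinks 2.0.2 and Cuffdiff and the build GRCh38 are named, without their roles, in the submitters' processing notes. The strand setting and the mode of counting are not given in the sources used here.

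The HOX genes and all lists were chosen with earlier results of these data known. Every HOX gene is accounted for. Those that passed the filter are given in full, except that a few genes and sequences are not reported here, though counts, medians and sums over lists and clusters include them, and any member of a list may be named. The test was that of edgeR 4.0.16 (R 4.3.3): filterByExpr left 16561 genes (99.82% of counts), TMM scaling, 1 quasi-likelihood fit over 9 libraries with 6 residual degrees of freedom, two-sided tests and Benjamini-Hochberg adjustment over all tested genes. RPKM in the text is TMM-scaled CPM divided by GENCODE exon length. On data simulated for shRRM2 against control, with 200 of 16178 genes changed, the test recovered 193 and called 9 others. The simulation gave every gene the same spread and changed far fewer genes than the 60.9% called in the data. It therefore cannot show how scaling and test perform at that share. Library totals of 15770895 to 24873291 set the counting precision, and a count of 0 allows up to 3 counts. Alternatives were RLE factors, DESeq2 1.42.0, other filters, 6 libraries only, a block on the replicate letter, limma 3.58.1 on RPKM and leaving out each library. Homeoboxes were found with Biopython 1.88 as the 180 bases around the conserved end of the homeodomain.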

Additional observations from a re-analysis of the deposited data

How the results depend on the processing

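Of 51 single-gene results (17 genes, 3 comparisons), 33 kept their direction and their side of the threshold under all 19 alternatives, 11 changed side in at least 1, and 7 changed direction in at least 1, none of which was called under any setting. For shRRM2 against control these were HOXB2 (log2 -0.0092 with no low-count filter) and HOXB8 (-0.0001 with limma on the deposited log2 RPKM, -0.0285 on log2(RPKM + 0.1), and -0.0309 to 0.164 without single libraries). For both hairpins against control they were HOXA4 (0.0001 on the deposited scale and 0.0515 on log2(RPKM + 0.1), each with 9 or 8 columns, and -0.1349 to 0.0618 without single libraries), HOXB7 (0.0008 and 0.0393 likewise), HOXC8 (0.0 and 0.0524 likewise, and -0.2953 to 0.2946 without single libraries), HOXA6 (-0.0228 to 0.1937 without single libraries) and HOXC4 (0.0 with no low-count filter, and -0.0957 to 0.1415 without single libraries). Leaving out each library gave 10 to 12 HOX genes called for shRRM2 against control, 13 to 15 for the p16 step and 9 to 10 for both hairpins against control, and at 2-fold or more 0 to 1, 2 to 4 and 1 to 2. The extra 2-fold call came without control replicate c in the first comparison and was HOXC8 (log2 1.21), and was HOXC9, which then passed the filter, in the others. Without replicate b with both hairpins HOXB5 fell short of 2-fold. The 2-fold count at the p16 step fell from 3 to 1 with limma on log2(RPKM + 0.1), with 9 or 8 columns, a choice made after seeing the data. On the deposited log2 scale, whose pseudocount compresses folds, no 2-fold count was made.

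By cluster, HOXA genes higher with shRRM2 numbered 0 in place of 1 with DESeq2 and with no filter, and 0 to 1 without single libraries. HOXC genes higher with shRRM2 numbered 1 to 2 without single libraries. HOXB genes lower with shRRM2 numbered 1 in place of 2 with limma on the deposited log2 RPKM. At the p16 step, HOXC genes higher numbered 1 in place of 0 with limma on either scale and the 8 matching columns, and HOXC genes lower numbered 1 in place of 2 on log2(RPKM + 0.1) with them. For both hairpins against control, HOXA genes lower numbered 0 in place of 1 with limma on all 9 columns on either scale, and HOXC genes lower 0 to 1 without single libraries. The cause was not tested.

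With the replicate letter as a block, 11, 14 and 9 HOX genes were called in the 3 comparisons (11, 14 and 10 without it), and 0, 3 and 1 at 2-fold; HOXB4 against control with both hairpins was the call lost. Same-letter libraries of different groups correlated at -0.0198 to 0.0486 in their deviations from group means, and different-letter libraries at -0.0482 to 0.0358. With 3 libraries per group this cannot show whether the letters mark a shared infection or batch. Few counts limit HOXA2, HOXA4 and the HOXC genes, whose standard errors were among the widest.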

Other observations

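The deposited RPKM column of shRRM2 replicate c differs from its count file. For genes with 50 or more reads, 11.2% of its values lie within 2% of the value computed from the counts, against 99.8% or more in each of the 8 other columns. All levels given here come from the counts. HOX results that used the RPKM values are given with and without that column.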
